A study of Homo sapiens with 12 samples.

Results

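The 32 genes described here make cholesterol and fatty acids, or regulate their making, and were measured in HK-2, a human cell line immortalized from renal proximal tubule epithelium. Members were all probe sets that the platform annotation gave to exactly 1 of these genes. There were 64 such probe sets, for 29 of the 32 genes, among 54675 on the array. Of the 64, 59 passed the filter on dim signals, a log2 value above 4 on at least 3 arrays, as did 20625 probe sets for 11154 genes in the whole series. Every one of the 29 genes kept at least 1 probe set. CYP51A1 and FADS1 were annotated only on probe sets with several genes, FDFT1 had none of its own, and these 3 genes were left out. The 5 probe sets under the filter were 1 each of MVK, EBP, SREBF1, FASN and FADS2.

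The 12 arrays fell into 4 groups of 3 biological replicates: cells given CsA (taken to be cyclosporin A, an immunosuppressant with known kidney toxicity) for 12 h, vehicle controls at 12 h, CsA for 48 h, and vehicle controls at 48 h. All groups were grown in a defined DMEM and Ham's F12 mixture with epidermal growth factor, hydrocortisone, insulin, transferrin and selenium, and treatment began when the wells were close to confluent. No genotype or agent other than CsA or vehicle differed between groups, and neither dose nor vehicle is given in the sources used here. The series is part of a search for expression signatures of nephrotoxic compounds. Cells were 1 line, so replicates do not measure the spread between people, and p-values measure only the spread between these arrays.

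Cholesterol is built from acetyl-CoA through mevalonate, isopentenyl units, squalene and lanosterol, and fatty acids from the same acetyl-CoA through malonyl-CoA. Most of the genes are targets of the SREBP transcription factors, which stay in the endoplasmic reticulum bound to SCAP and INSIG while sterols are plentiful and are carried to the Golgi and cleaved when sterols fall. In proximal tubule cells, as in others, this feedback holds membrane cholesterol steady, and insulin and growth factors also raise the fatty acid arm.

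Promoters are shown because the members shared a direction in several comparisons and SREBP and its partner NF-Y are known to bind near the start of such genes. RefSeq promoters of GRCh38.p14, 250 bases before to 50 bases after a transcription start, matched 29 of the 32 genes with 42 promoters. They are the measured members except SQLE and FASN, together with CYP51A1 and FADS1. They were searched on both strands for TCACNCCA (a core of the sterol regulatory element), CCAAT (the NF-Y box) and CACGTG (an E-box). CCAAT was in 25 of the 42 promoters (59.5%), against 34.6% of all 35116 promoters in the table. Counted by gene, it was in at least 1 promoter of 21 of 29 genes (72.4%), against 39.7% of all genes. TCACNCCA was in 3 of 42 (7.14%; MVK, MSMO1 and SREBF2), against 3.95% of all, and CACGTG in 5 of 42 (11.9%), against 7.26%. By gene, TCACNCCA was in 3 of 29 (10.3%), against 4.8%, and CACGTG in 4 of 29 (13.8%), against 8.77%. The 2 SC5D promoters overlap and hold the same CACGTG and CCAAT sites, and the 2 ACLY promoters overlap and hold the same 2 CCAAT sites. Each shared site was counted for each promoter, so the counts by promoter hold these repeats and the counts by gene do not. No TCACNCCA match overlapped a CCAAT match. Genes with more promoters in the table had more chances of a match, and these counts describe letters, not bound sites. The 250 bases before 1 start are given here for 6 members, 5′ to 3′ on the gene's strand, with every match in capitals. HMGCS1, IDI1 and ELOVL6 are the genes called when the CsA effect was compared between the times, and these calls depended on single arrays. MSMO1 holds both TCACNCCA and CCAAT, as do MVK and SREBF2. Both are in 3 of 42 promoters (7.14%), against 1.41% of all. INSIG1 holds an E-box, and STARD4 was the member that rose most with time in culture.
HMGCS1, chr5:43313413-43313662, minus strand: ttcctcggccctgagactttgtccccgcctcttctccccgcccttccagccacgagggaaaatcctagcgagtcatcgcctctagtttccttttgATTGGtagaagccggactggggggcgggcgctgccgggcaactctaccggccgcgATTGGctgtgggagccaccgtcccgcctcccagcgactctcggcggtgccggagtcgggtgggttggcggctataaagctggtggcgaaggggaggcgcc
IDI1, chr10:1049120-1049369, minus strand: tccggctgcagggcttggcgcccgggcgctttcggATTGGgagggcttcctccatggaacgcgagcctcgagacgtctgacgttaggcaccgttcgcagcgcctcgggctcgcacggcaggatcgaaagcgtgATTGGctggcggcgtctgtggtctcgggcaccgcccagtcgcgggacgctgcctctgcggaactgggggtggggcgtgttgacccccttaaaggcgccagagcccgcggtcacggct
ELOVL6, chr4:110198616-110198865, minus strand: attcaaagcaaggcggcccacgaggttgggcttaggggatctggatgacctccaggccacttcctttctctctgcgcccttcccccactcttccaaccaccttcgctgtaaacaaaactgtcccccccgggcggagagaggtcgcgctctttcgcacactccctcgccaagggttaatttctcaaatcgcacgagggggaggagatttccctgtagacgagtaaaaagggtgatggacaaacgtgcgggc
MSMO1, chr4:165327419-165327668, plus strand: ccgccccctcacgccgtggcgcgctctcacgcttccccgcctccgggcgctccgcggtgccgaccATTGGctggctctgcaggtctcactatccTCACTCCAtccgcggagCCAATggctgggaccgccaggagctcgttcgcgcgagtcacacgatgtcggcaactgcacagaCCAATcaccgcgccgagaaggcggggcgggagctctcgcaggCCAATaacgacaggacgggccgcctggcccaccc
INSIG1, chr7:155297628-155297877, plus strand: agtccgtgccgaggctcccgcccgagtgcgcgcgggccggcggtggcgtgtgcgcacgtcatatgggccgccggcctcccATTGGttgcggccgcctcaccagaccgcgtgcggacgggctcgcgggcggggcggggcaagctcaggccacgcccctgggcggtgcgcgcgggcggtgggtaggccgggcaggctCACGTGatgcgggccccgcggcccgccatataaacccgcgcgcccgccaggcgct
STARD4, chr5:111512536-111512785, minus strand: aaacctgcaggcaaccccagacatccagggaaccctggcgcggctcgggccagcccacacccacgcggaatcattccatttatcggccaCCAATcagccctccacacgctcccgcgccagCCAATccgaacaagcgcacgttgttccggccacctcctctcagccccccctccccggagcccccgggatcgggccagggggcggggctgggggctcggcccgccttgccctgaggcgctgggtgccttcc
RefSeq lists 2 promoters for HMGCS1 and 3 for IDI1, and the windows printed were chosen after the matches were seen. The other HMGCS1 promoter and 1 of IDI1 hold no match, and the remaining IDI1 promoter holds 3 CCAAT matches, 1 of them on the gene's strand. In the printed HMGCS1 and IDI1 windows both CCAAT matches were on the opposite strand, 155 and 100 bases before the start in HMGCS1 and 215 and 117 in IDI1. MSMO1 had CCAAT matches 185, 139, 76 and 34 bases before the start, with the TCACNCCA match 156 bases before it, between the first 2 of these. INSIG1 had its CCAAT match at 170 bases and its CACGTG match at 55 bases before the start, and STARD4 had CCAAT matches at 161 and 130. ELOVL6 had no match to these letters in this window.

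On each array 42.2% to 42.8% of all probe sets exceeded a log2 value of 4. Arrays of 12 h had a median SD per probe set of 0.115 (control) and 0.116 (CsA), and those of 48 h one of 0.166 (control) and 0.222 (CsA). Over the leading probe sets of the 29 genes the same SDs were 0.104, 0.117, 0.121 and 0.130. Hybridization controls were low on replicate 3 of CsA at 48 h (6.95, against 9.60 to 10.9 on the other arrays), and poly-A controls on replicate 1 of both 48 h groups (4.13 and 3.78, against 8.26 to 9.99). The tubule markers PAX8, CDH6, CDH16, CDH2 and SLC4A4 were above 4 on all 12 arrays, as were KRT8, KRT18, KRT19 and EPCAM. PAX2, ANPEP, GGT1, LRP2, CUBN and AQP1, also markers of the proximal tubule lineage, and the epithelial CDH1 were under 4 on every array. Leukocyte (PTPRC, CD3E, CD14) and endothelial (PECAM1, VWF, CDH5) markers were under 4 on every array. Of 4 fibroblast markers, COL1A1 (8.70 to 10.3) and LUM (6.70 to 9.61) were above 4 on all arrays, PDGFRB on 11, and COL3A1 on none.

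After 12 h of CsA the sterol and fatty acid genes lay slightly higher than in control, by a median log2 change of 0.22 over 29 genes, each represented by its brightest probe set. ACSS2, MVD, STARD4, LPIN1 and LSS had the largest positive changes, 0.67 to 0.41. No member passed the test at 12 h (limma on the 6 arrays of that time, Benjamini-Hochberg over 20625 probe sets, threshold 0.05), and 0% of all probe sets were called in either direction. The adjusted p of the 29 genes ran from 0.424 for ACSS2 upwards. At an unadjusted limma p under 0.05, 21 of 59 member probe sets, in 13 genes, were higher and 1 was lower, where 3.68% and 2.82% of all probe sets were. The change was positive for 50 of 59 member probe sets and for 25 of 29 genes, against 48.7% of all probe sets. The 3 CsA arrays all lay above the 3 controls for 24 member probe sets, in 14 genes, and all below for 2. Among all probe sets 6.2% and 5.78% did so. The replicate numbers paired the arrays of this time, and CsA lay above control in all 3 pairs for 38 member probe sets, in 20 genes, and below in all 3 for 5, where 18.2% and 19% of all did. With the pairs as a block no member passed, the lowest limma adjusted p being 0.242 for MVD and ACSS2. The median log2 change of all probe sets was -0.003 at this time.

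After 48 h of CsA most of the same genes lay lower than in control, by a median log2 change of -0.22. ELOVL6, HMGCS1, IDI1 and TM7SF2 had the largest negative changes among genes with a mean log2 value of at least 6, from -0.49 to -1.16. Of 59 member probe sets 1 passed, the dim SQLE probe set 1557352_at, where 0.0388% of all probe sets were called lower and 0% higher (limma on the 6 arrays of 48 h). No gene passed by its brightest probe set. At an unadjusted limma p under 0.05, 15 member probe sets in 8 genes were lower and 0 were higher, where 11.9% and 7.63% of all were. The change was negative for 46 of 59 member probe sets and 24 of 29 genes, against 51.6% of all probe sets. CsA arrays all lay below the controls for 25 member probe sets, in 15 genes, and all above for 1, against 15% and 12.5% of all. A fit of all 12 arrays shares 1 spread between the times, although the 48 h arrays spread more widely. An earlier fit of this kind was known to make too many false calls at 48 h. The fit here called 12 member probe sets in 6 genes lower and 0 higher, where it called 8.18% of all lower and 4.52% higher. Those 6 genes were HMGCS1, IDI1, TM7SF2, ACLY, ELOVL6 and FADS2, with limma adjusted p of 0.00424, 0.00696, 0.00736, 0.0168, 0.00207 and 0.0454 in that fit.

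Cell type markers also had lower and higher values with CsA on the same 48 h arrays. Of 11 proximal tubule markers 5 passed the filter, and their mean log2 value was 10.74 to 11.10 in control and 10.22 to 10.33 with CsA at 48 h. At 12 h it was 10.97 to 11.09 in control and 11.01 to 11.08 with CsA. SLC4A4, CDH6 and CDH16 changed by -1.75, -1.16 and -0.95 at 48 h, CDH2 by -0.31 and PAX8 by 1.09. None passed at 48 h alone. The fit of all 12 arrays called 3 lower and 1 higher, where it called 8.18% and 4.52% of all probe sets. The difference between the times passed for CDH6 (limma adjusted p = 0.0233) and PAX8 (0.0402). In that test 0.276% of all probe sets were called lower and 0.0436% higher. The 3 measured fibroblast markers had a mean of 7.75 to 8.12 in control and 6.84 to 7.61 with CsA at 48 h, against 7.48 to 7.97 and 7.66 to 8.10 at 12 h. LUM and COL1A1 changed by -1.68 and -0.95 and PDGFRB by 0.21, with 2 called lower in the fit of all 12 arrays. The means of the 4 measured epithelial markers, 13.25 to 13.34 in control and 13.22 to 13.77 with CsA at 48 h, overlapped. Single epithelial markers changed by -0.23 to 0.79 at 48 h, 1 positive and 3 negative, and 0 were called in either fit. The part of these changes in the values of the sterol and fatty acid genes was not tested.

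**Figure D1:**
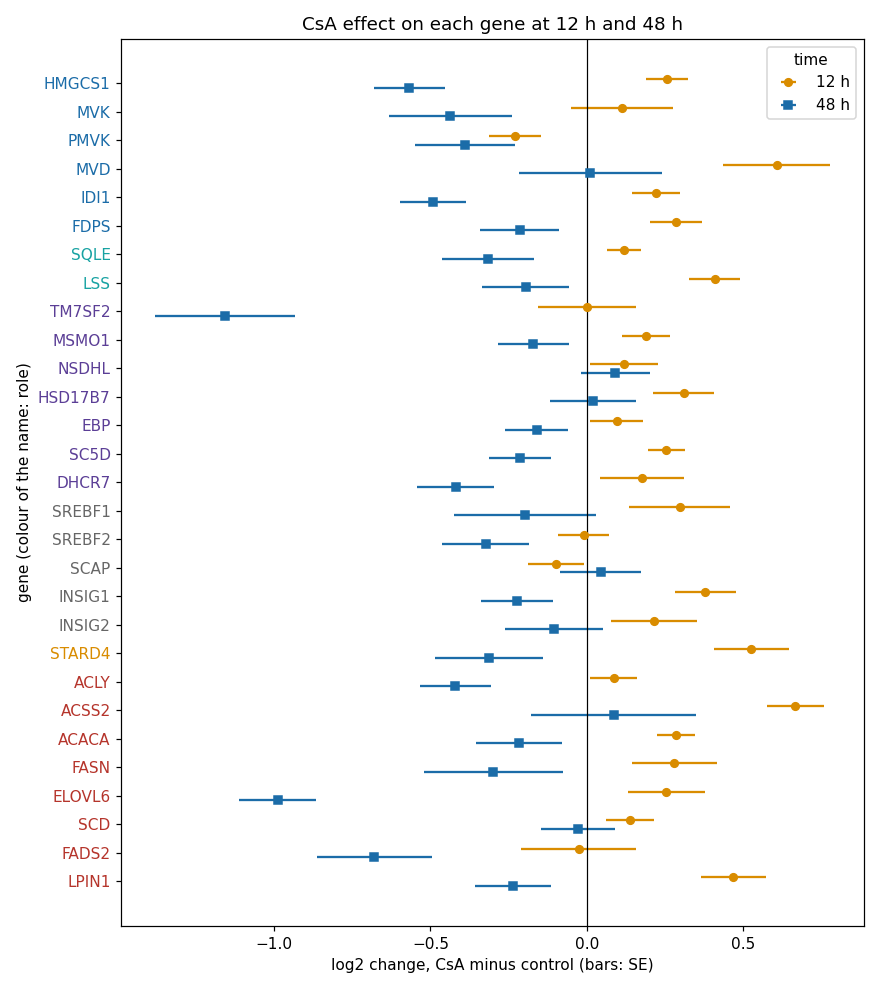
The log2 change of CsA against control is plotted on the horizontal axis for the leading probe set of each of 29 genes, at 12 h (circles) and 48 h (squares), with bars of 1 standard error from limma and 3 arrays per group. Most circles lie right of 0 and most squares left of it, with medians of 0.22 and -0.22, and TM7SF2 and ELOVL6 have the squares farthest left.

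The change from 12 h to 48 h in the CsA effect, tested as an interaction on all 12 arrays, was lower for 3 genes: HMGCS1, IDI1 and ELOVL6. They had 4 member probe sets called (2 of ELOVL6), where 0.276% of all probe sets were called lower and 0.0436% higher (limma, Benjamini-Hochberg). The difference was negative for 28 of 29 genes, SCAP being the exception at 0.14, and for 54 of 59 member probe sets, against 52.3% of all. Its median over the genes was -0.51. At an unadjusted limma p under 0.05, 29 member probe sets in 16 genes were lower and 0 were higher, where 9.55% and 5.92% of all were. A positive change at 12 h with a negative change at 48 h was found for 21 genes and 40 of 59 member probe sets, against 22% of all probe sets. The replicate number within each time was also used as a block. Then 6 member probe sets were called lower and 0 higher, where 0.936% and 0.242% of all were. The same 3 genes were called by their brightest probe sets. At 48 h the numbers did not pair CsA with control arrays (correlations of -0.107, 0.306 and -0.149), so that part of the block is arbitrary.

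The calls on the difference depended on single arrays. All 4 were kept in 3 of the 12 fits that leave out 1 array, those without replicate 2 or 3 of CsA or replicate 3 of control at 48 h, and none was kept in the other 9. The 9 arrays whose removal ended the calls were all 6 arrays of 12 h, replicate 1 of CsA at 48 h and replicates 1 and 2 of control at 48 h. Over the 12 fits the log2 difference ran from -0.87 to -0.76 for HMGCS1, from -0.77 to -0.66 for IDI1 and from -1.33 to -1.14 for ELOVL6. With the array of low hybridization controls (CsA at 48 h, replicate 3) left out, 7 genes and 9 probe sets were called. The share of all probe sets called in that fit is not given here, so the rise cannot be read as particular to the members. Without replicate 1 of both 48 h groups, those with the low poly-A controls, no member was called, and the differences were -0.81, -0.72 and -1.17 for these genes. With a weight estimated for each group, none passed, at limma adjusted p of 0.0526 to 0.0619.

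**Figure D2:**
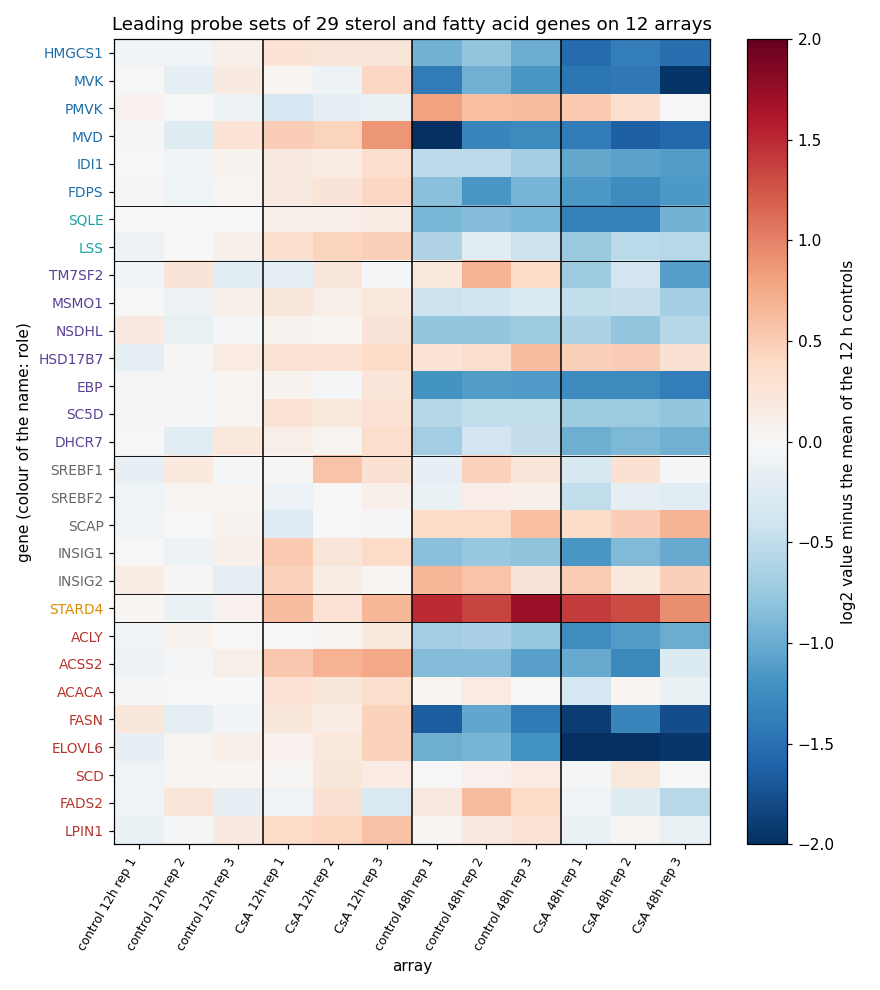
Each cell is the log2 value of a gene's leading probe set (rows, 29 genes, names coloured by role) on 1 of 12 arrays (columns) minus the mean of the 3 control arrays at 12 h, red above and blue below, with values beyond the ends of the scale in the end colour. The 12 h CsA columns are mostly pale red, the 48 h columns mostly blue, and STARD4 is red at 48 h with and without CsA, by 1.52 in the control.

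Mevalonate is made and turned into isopentenyl and farnesyl units by HMGCS1, MVK, PMVK, MVD, IDI1 and FDPS. With CsA, 5 of these 6 genes had a positive change at 12 h and 5 had a negative one at 48 h, with medians of 0.24 and -0.41. HMGCS1 makes HMG-CoA, the substrate for mevalonate synthesis. Its log2 values were 11.49, 11.49 and 11.64 in control and 11.82, 11.78 and 11.79 with CsA at 12 h. After 48 h they were 10.59, 10.76 and 10.55 in control and 10.00, 10.16 and 10.04 with CsA. The CsA arrays did not overlap the controls at either time, lying above them at 12 h and below them at 48 h. The log2 change was 0.26 (SE 0.07, limma adjusted p = 0.617) at 12 h and -0.57 (SE 0.11, limma adjusted p = 0.0938) at 48 h, where CsA was 1.48-fold lower. The difference between these effects was -0.82 (SE 0.12, limma adjusted p = 0.0402).

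IDI1 interconverts the isoprene units that are joined into longer chains. It read 13.80, 13.76 and 13.88 in control and 13.99, 13.96 and 14.15 with CsA at 12 h. The 48 h values were 13.29, 13.29 and 13.14 in control and 12.80, 12.74 and 12.70 with CsA. Again CsA arrays were all above the controls at 12 h and all below them at 48 h. The log2 changes were 0.22 (SE 0.08) and -0.49 (SE 0.10, limma adjusted p = 0.101), and their difference of -0.72 (SE 0.12) had a limma adjusted p of 0.0445. This probe set's name ends in x_at, a suffix given where probes can match related sequences.

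MVD removes the carboxyl group that leaves isopentenyl pyrophosphate. It was 7.42, 7.21 and 7.72 in control and 7.95, 7.89 and 8.33 with CsA at 12 h, 1.52-fold higher with no overlap (log2 change 0.61, SE 0.17, limma adjusted p = 0.621). At 48 h control read 5.40, 6.13 and 6.18 and CsA 6.04, 5.81 and 5.88, with overlap and a change of 0.01 (SE 0.23). FDPS, the synthase of farnesyl pyrophosphate, read 13.76, 13.66 and 13.80 against 13.92, 13.99 and 14.15 with CsA at 12 h (0.28, SE 0.08). It then read 12.91, 12.57 and 12.81 against 12.58, 12.48 and 12.59 at 48 h (-0.21, SE 0.13), where the arrays overlapped. MVK, the kinase of mevalonate, read 9.10, 8.89 and 9.28 in control and 9.13, 8.98 and 9.50 with CsA at 12 h, which overlap. The 48 h arrays gave 7.69, 8.14 and 7.92 in control and 7.64, 7.65 and 7.14 with CsA, all CsA arrays below (-0.44, SE 0.20, limma adjusted p = 0.292). PMVK, the next kinase, was the exception of the arm at 12 h. Its values were 7.98, 7.91 and 7.80 in control and 7.56, 7.70 and 7.75 with CsA at 12 h (-0.23, SE 0.08). At 48 h they were 8.70, 8.50 and 8.53 in control and 8.42, 8.24 and 7.91 with CsA (-0.39, SE 0.16), so that CsA arrays lay below at both times. None of these 4 genes passed in either CsA comparison or in the difference.

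**Figure D3:**
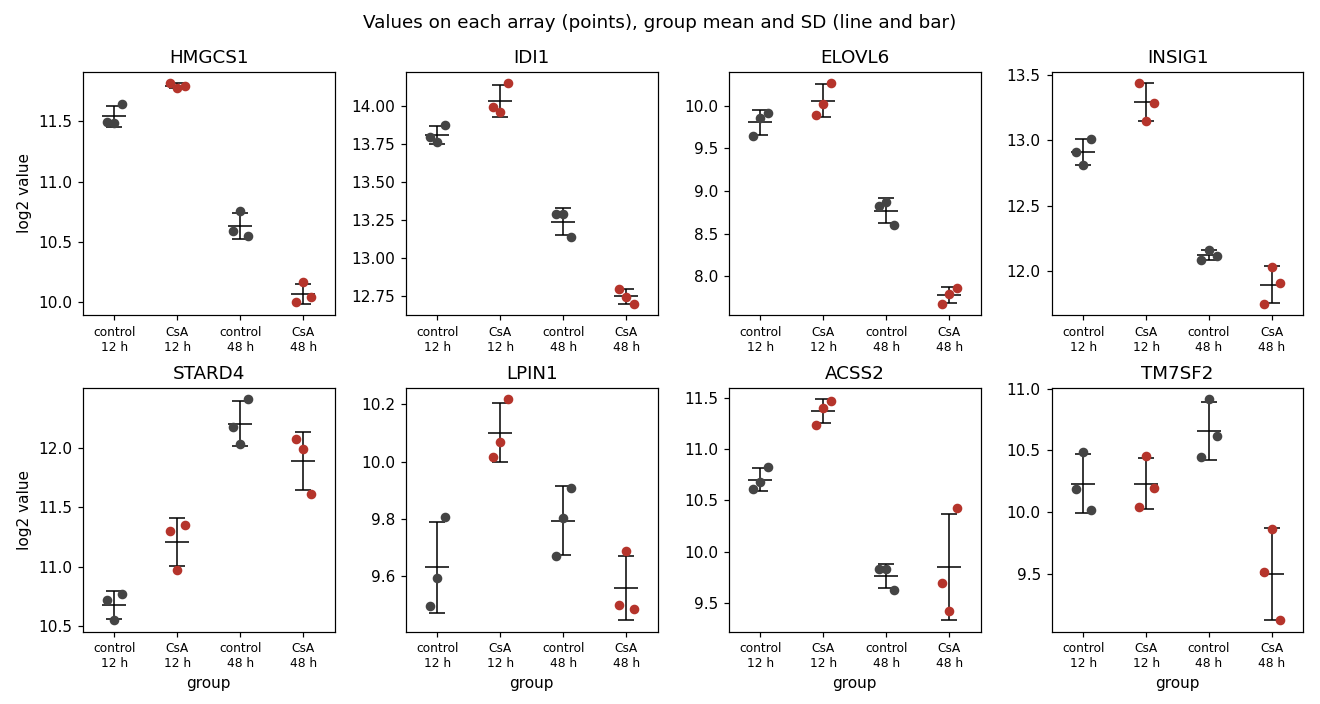
Log2 values on each of the 12 arrays (points, control in grey and CsA in red, with the group mean as a long line and the SD as bars, n = 3) are plotted by group for 8 members, each panel with its own axis that does not start at 0. HMGCS1, IDI1 and ELOVL6 show CsA points above or overlapping control at 12 h and below it at 48 h, and STARD4 shows higher points at 48 h than at 12 h in both treatments.

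SQLE opens the path from squalene and LSS closes the ring to lanosterol. SQLE epoxidizes squalene and is a slow step of the pathway. Its brightest probe set read 13.61, 13.62 and 13.63 in control and 13.73, 13.72 and 13.77 with CsA at 12 h, a small change of 0.12 (SE 0.05) with no overlap. Its 48 h values were 12.70, 12.75 and 12.71 in control and 12.27, 12.26 and 12.68 with CsA, where replicate 3 of CsA lay close to the controls (-0.32, SE 0.15, limma adjusted p = 0.304). The dim SQLE probe set 1557352_at read 5.98, 5.90 and 5.96 in control and 4.28, 4.28 and 4.26 with CsA at 48 h. It was called lower by -1.67 (SE 0.10, limma adjusted p = 0.0341), with CsA values near the log2 value of 4 that served as the floor, where GCRMA compresses signals. With the replicate block its limma adjusted p was 0.0941. Its call was also lost without replicate 1 of CsA (limma adjusted p = 0.226), replicate 2 of CsA (0.12), replicate 1 of control (0.218) or replicate 2 of control (0.159). At 12 h the same probe set read 5.94, 6.66 and 6.57 in control and 5.93, 7.02 and 6.55 with CsA. LSS read 11.42, 11.53 and 11.63 in control and 11.84, 11.96 and 12.00 with CsA at 12 h, 1.33-fold higher with no overlap (0.41, SE 0.08, limma adjusted p = 0.59). Its 48 h values, 10.92, 11.30 and 11.10 against 10.79, 10.98 and 10.97, overlapped (-0.20, SE 0.14).

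The genes that turn lanosterol into cholesterol had 7 measured members, and all 7 had a change at or above 0 at 12 h, with a median of 0.18. At 48 h 5 of the 7 were negative and the median was -0.17. TM7SF2, a sterol reductase of this branch, stood apart. It read 10.18, 10.49 and 10.02 in control and 10.04, 10.46 and 10.20 with CsA at 12 h, a change of 0.00 (SE 0.16). After 48 h control arrays read 10.45, 10.91 and 10.61 and CsA arrays 9.52, 9.86 and 9.13, all lower, by 2.23-fold (-1.16, SE 0.22, limma adjusted p = 0.0879). Its effect at 48 h minus that at 12 h, -1.16 (SE 0.29), had a limma adjusted p of 0.108. At 48 h the other 6 genes had smaller changes. DHCR7, which makes cholesterol from its direct precursor, read 11.13, 10.89 and 11.33 against 11.24, 11.17 and 11.46 with CsA at 12 h and 10.41, 10.73 and 10.63 against 10.14, 10.22 and 10.16 at 48 h. Its arrays overlapped at 12 h and CsA was below at 48 h (-0.42, SE 0.12, limma adjusted p = 0.154).

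SC5D, the sterol desaturase before DHCR7, read 12.01, 12.01 and 12.09 against 12.31, 12.25 and 12.32 with CsA at 12 h. The 48 h values were 11.46, 11.54 and 11.54 against 11.33, 11.32 and 11.26, again with no overlap but with CsA below. The changes were 0.25 (SE 0.06) and -0.21 (SE 0.10), and the difference of -0.47 (SE 0.10) had a limma adjusted p of 0.0739. MSMO1, which oxidizes methyl groups of lanosterol products, was among the brightest members. It read 14.23, 14.13 and 14.33 against 14.46, 14.35 and 14.45 with CsA at 12 h, and 13.80, 13.84 and 13.95 against 13.74, 13.76 and 13.57 at 48 h. CsA lay above at 12 h and below at 48 h, by 0.19 (SE 0.08) and -0.17 (SE 0.11). HSD17B7, a keto-reductase of the branch, read 10.57, 10.76 and 10.90 against 11.02, 11.03 and 11.11 with CsA at 12 h (0.31, SE 0.10), with no overlap. The 48 h values were 11.02, 11.07 and 11.37 against 11.22, 11.24 and 11.05, which overlap, and its change of 0.02 turned negative in 4 of 6 fits that leave out 1 array, the lowest being -0.0445 without replicate 1 of control. NSDHL, a decarboxylating dehydrogenase, changed by 0.12 (SE 0.11) and 0.09 (SE 0.11), with 10.22, 9.90 and 10.00 against 10.10, 10.08 and 10.30 at 12 h and 9.27, 9.26 and 9.33 against 9.41, 9.25 and 9.47 at 48 h. EBP, a sterol isomerase, read 13.12, 13.14 and 13.21 against 13.22, 13.14 and 13.40 at 12 h, and 11.96, 12.03 and 12.02 against 11.89, 11.88 and 11.76 at 48 h. NSDHL overlapped at both times, and EBP at 12 h alone.

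None of the SREBP regulators passed in a CsA comparison or in the difference. SREBF2 encodes the factor that favours sterol genes and read 9.85, 10.00 and 9.98 against 9.83, 9.94 and 10.04 with CsA at 12 h, a change of -0.01 (SE 0.08). Its 48 h values were 9.82, 10.07 and 10.05 against 9.46, 9.77 and 9.74, with CsA below (-0.32, SE 0.14, limma adjusted p = 0.274). SREBF1, whose products favour fatty acid genes, had group means of 9.53 ± 0.19 and 9.83 ± 0.27 at 12 h and of 9.71 ± 0.32 and 9.51 ± 0.31 at 48 h (control then CsA, SD, n = 3). The arrays overlapped at both times. Replicate numbers paired the 12 h arrays, and within them CsA minus control for SREBF1 was 0.19, 0.36 and 0.34. With these pairs as a block, the limma adjusted p of SREBF1 at 12 h was 0.291. At 48 h the numbers did not pair the arrays, and CsA minus control by number was -0.16, -0.15 and -0.29. SCAP, the escort that carries the factors to the Golgi, read 9.62, 9.68 and 9.77 against 9.43, 9.68 and 9.66 at 12 h and 10.09, 10.09 and 10.29 against 10.06, 10.18 and 10.36 at 48 h. It overlapped at both times, and its change of 0.04 at 48 h became -0.04 without replicate 3 of CsA.

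INSIG1 and INSIG2 hold the SCAP complex in the endoplasmic reticulum, and INSIG1 is itself an SREBP target. INSIG1 read 12.91, 12.81 and 13.01 in control and 13.44, 13.15 and 13.29 with CsA at 12 h, 1.3-fold higher with no overlap (0.38, SE 0.10, limma adjusted p = 0.617). At 48 h it read 12.08, 12.16 and 12.12 in control and 11.75, 12.03 and 11.91 with CsA, which lay below (-0.22, SE 0.12). The other 2 INSIG1 probe sets changed by 0.46 and 0.52 at 12 h, the same way, and by -0.07 and 0.40 at 48 h, not the same way. INSIG2 read 7.94, 7.83 and 7.63 in control and 8.26, 7.95 and 7.84 with CsA at 12 h (0.21). At 48 h control read 8.47, 8.37 and 8.06 and CsA 8.30, 7.999 and 8.28 (-0.11), and the arrays overlapped at both times.

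STARD4 carries cholesterol between membranes and is an SREBP2 target. It read 10.72, 10.55 and 10.77 in control and 11.30, 10.97 and 11.35 with CsA at 12 h, 1.44-fold higher with no overlap (0.53, SE 0.12, limma adjusted p = 0.595). At 48 h it read 12.17, 12.03 and 12.41 in control and 12.07, 11.99 and 11.61 with CsA, which overlap (-0.31, SE 0.17). The difference of -0.84 (SE 0.22) had a limma adjusted p of 0.115.

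Fatty acid synthesis had 8 measured members, of which 7 had a positive change at 12 h and 7 a negative one at 48 h, with medians of 0.27 and -0.27. ELOVL6, which lengthens palmitate to stearate, had the largest change. Its leading probe set read 9.64, 9.86 and 9.92 in control and 9.90, 10.02 and 10.27 with CsA at 12 h, with overlap. At 48 h it read 8.82, 8.88 and 8.60 in control and 7.68, 7.80 and 7.86 with CsA, 1.99-fold lower with no overlap (-0.99, SE 0.12, limma adjusted p = 0.0662). The difference between the times was -1.24 (SE 0.18, limma adjusted p = 0.0373). A second probe set, 210868_s_at, read 8.21, 8.49 and 7.98 in control and 6.41, 6.94 and 6.85 with CsA at 48 h (-1.49, SE 0.20), and its difference was -1.75 (SE 0.26, limma adjusted p = 0.0387). The dimmer 227491_at read 6.12, 6.79 and 6.05 against 4.66, 4.71 and 5.33 at 48 h (-1.42, SE 0.27). All 3 ELOVL6 probe sets thus had CsA arrays below control arrays at 48 h. ELOVL6 passed at 48 h when genes were represented by 1 probe set each (limma adjusted p = 0.045), by the mean of their probe sets (0.0473), above a stricter filter (0.0497) or with a trended, robust prior (0.0481). It did not pass with the replicate number as a block (0.12) or in any of the 6 fits that leave out 1 array of 48 h (0.0625 to 0.245).

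ACLY and ACSS2 supply the acetyl-CoA. ACLY, which cleaves citrate, read 13.46, 13.59 and 13.53 against 13.54, 13.59 and 13.72 with CsA at 12 h. At 48 h it read 12.83, 12.88 and 12.78 against 12.28, 12.41 and 12.53, all CsA arrays below (-0.42, SE 0.11, limma adjusted p = 0.136). ACSS2, which activates acetate, had the largest change of all members at 12 h, with 10.61, 10.68 and 10.82 in control and 11.24, 11.40 and 11.47 with CsA (0.67, SE 0.09, 1.59-fold, limma adjusted p = 0.424). At 48 h it read 9.83, 9.83 and 9.62 against 9.69, 9.42 and 10.43, where replicate 3 of CsA stood above the controls, replicate 1 within their range and replicate 2 below them. Its change of 0.09 there became -0.20 without that array.

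ACACA makes malonyl-CoA and FASN builds palmitate from it. ACACA had group means of 10.60 ± 0.02 and 10.88 ± 0.06 at 12 h (control then CsA, SD, n = 3), with no overlap (0.29, SE 0.06, limma adjusted p = 0.59). At 48 h they were 10.67 ± 0.08 and 10.45 ± 0.20, which overlap. FASN read 10.91, 10.51 and 10.62 against 10.91, 10.82 and 11.14 at 12 h and 9.03, 9.64 and 9.27 against 8.78, 9.35 and 8.90 at 48 h. Its arrays overlapped at both times, with changes of 0.28 (SE 0.14) and -0.30 (SE 0.22). SCD, which puts the first double bond into stearate, was the brightest member, at 15.22 ± 0.07 and 15.36 ± 0.10 at 12 h and 15.30 ± 0.08 and 15.28 ± 0.13 at 48 h. Its 3 other probe sets were dimmer and changed by 0.31 to 0.50 at 12 h, against 0.14 for the brightest. LPIN1, a phosphatidate phosphatase and SREBP target, read 9.50, 9.59 and 9.81 in control and 10.02, 10.07 and 10.22 with CsA at 12 h (0.47, SE 0.10, 1.38-fold, limma adjusted p = 0.59). The other 2 LPIN1 probe sets changed by 0.47 and, the dimmest, by 0.80, and all 3 had CsA above control at 12 h. At 48 h LPIN1 had means of 9.79 ± 0.12 and 9.56 ± 0.11, which overlap. FADS2, the delta-6 desaturase, was dim at a mean of 4.78 ± 0.21 in the 12 h controls and 4.49 ± 0.25 with CsA at 48 h, below 5.17 ± 0.23 in the controls of that time.

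Not all probe sets of a gene moved alike. In IDI1, 233014_at and 242065_x_at were dim, at 7.02 to 8.44, and changed by -0.28 and -0.15 at 12 h and by -0.09 and 0.06 at 48 h. The other 2 IDI1 probe sets lay at 12.63 to 14.15 and both changed by 0.22 at 12 h, with -0.49 and -0.48 at 48 h. A second HMGCS1 probe set, 205822_s_at, read 7.65, 8.92 and 9.78 in control and 8.43, 8.54 and 5.91 with CsA at 48 h, with wide overlap and an SE of 0.85 beside its change of -1.16. Averaging the probe sets of each gene gave a difference of -1.17 for HMGCS1 (limma adjusted p = 0.389) and -0.25 for IDI1 (0.367), neither of which passed, and -1.52 for ELOVL6 (0.0289).

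**Figure D4:**
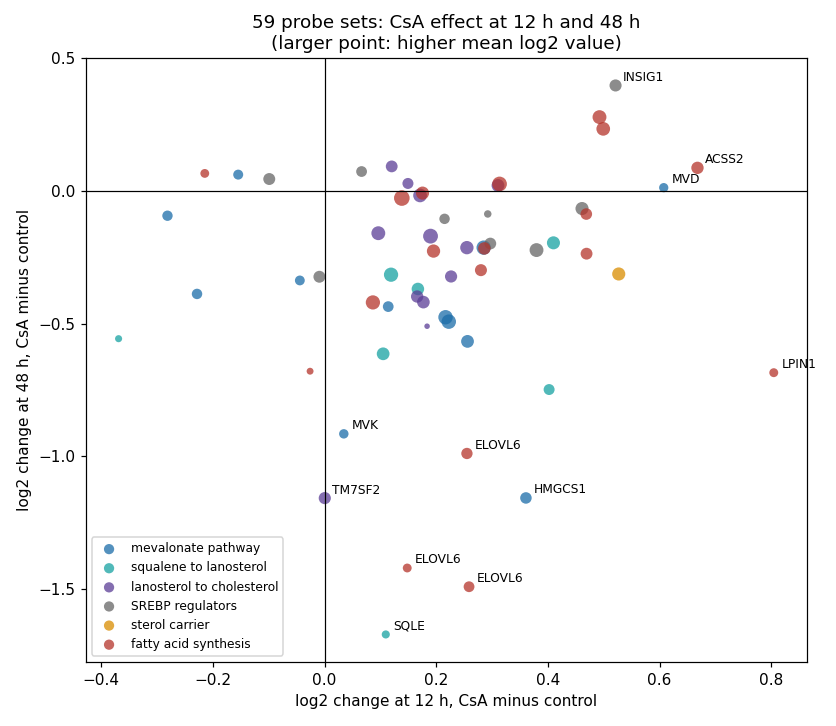
Each of the 59 member probe sets is placed by its log2 change with CsA at 12 h (horizontal) and 48 h (vertical), coloured by role, with larger points for higher mean log2 values. There are 40 points in the lower right quadrant (higher at 12 h, lower at 48 h), and the lowest point is the dim SQLE probe set at -1.67.

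Time in culture changed most of these genes without CsA. Between the controls of 12 h and 48 h, 17 genes fell and 5 rose (limma on all 12 arrays, Benjamini-Hochberg), and 33 member probe sets were called lower and 6 higher, where 18% and 20.5% of all were. The control arrays of 48 h all lay below those of 12 h for 34 member probe sets and all above for 7, against 26.9% and 28.4% of all. The median log2 change was -0.52 over the 29 genes and 0.02 over all probe sets. These contrasts share control arrays with the CsA comparisons, so a value high in the 12 h controls enters both. The genes that fell were HMGCS1, MVK, MVD, IDI1 and FDPS of the mevalonate arm, SQLE and LSS, MSMO1, NSDHL, EBP, SC5D and DHCR7 of the lanosterol branch, INSIG1, and ACLY, ACSS2, FASN and ELOVL6. MVD fell most, 2.92-fold (log2 change -1.55, SE 0.21, limma adjusted p = 0.000308). FASN fell 2.58-fold (-1.37, SE 0.19), MVK 2.26-fold (-1.18, SE 0.19), EBP 2.22-fold (-1.15, SE 0.09) and ELOVL6 2.05-fold (-1.04, SE 0.12). HMGCS1 fell 1.88-fold, FDPS 1.96-fold, SQLE 1.87-fold and INSIG1 1.73-fold.

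The genes that rose with time in control were STARD4, PMVK, INSIG2, SCAP and HSD17B7. STARD4 rose 2.88-fold (log2 change 1.52, SE 0.15, limma adjusted p = 4.44e-05) beside the fall of 17 members. PMVK rose 1.6-fold, INSIG2 1.41-fold, SCAP 1.38-fold and HSD17B7 1.33-fold. SREBF1, SREBF2, SCD, ACACA, LPIN1, TM7SF2 and FADS2 did not pass. TM7SF2 did pass with the replicate number as a block (log2 change 0.43, limma adjusted p = 0.0215, against 0.124 without it). Same-numbered controls of both times were only weakly correlated, at 0.124, 0.13 and 0.295. The block also covered the CsA arrays, which the numbers did not pair between the times (0.19, -0.016 and -0.074). SREBF2 and SREBF1 changed by 0.03 (SE 0.11) and 0.18 (SE 0.21). The calls of 5 genes depended on 1 array or on a setting. INSIG2 did not pass with no filter on dim probe sets (limma adjusted p = 0.0527), nor without replicate 2 or 3 of control at 12 h or replicate 1 or 2 of control at 48 h (limma adjusted p 0.0528 to 0.0942). HSD17B7 did not pass without replicate 1 of control at 12 h (limma adjusted p = 0.0802) or replicate 3 at 48 h (0.0706). LSS did not pass without replicate 3 of control at 12 h (0.0586). With the probe sets of each gene averaged, IDI1, LSS and SC5D did not pass either, at -0.16, -0.26 and -0.25. STARD4 is measured by 1 probe set.

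**Figure D5:**
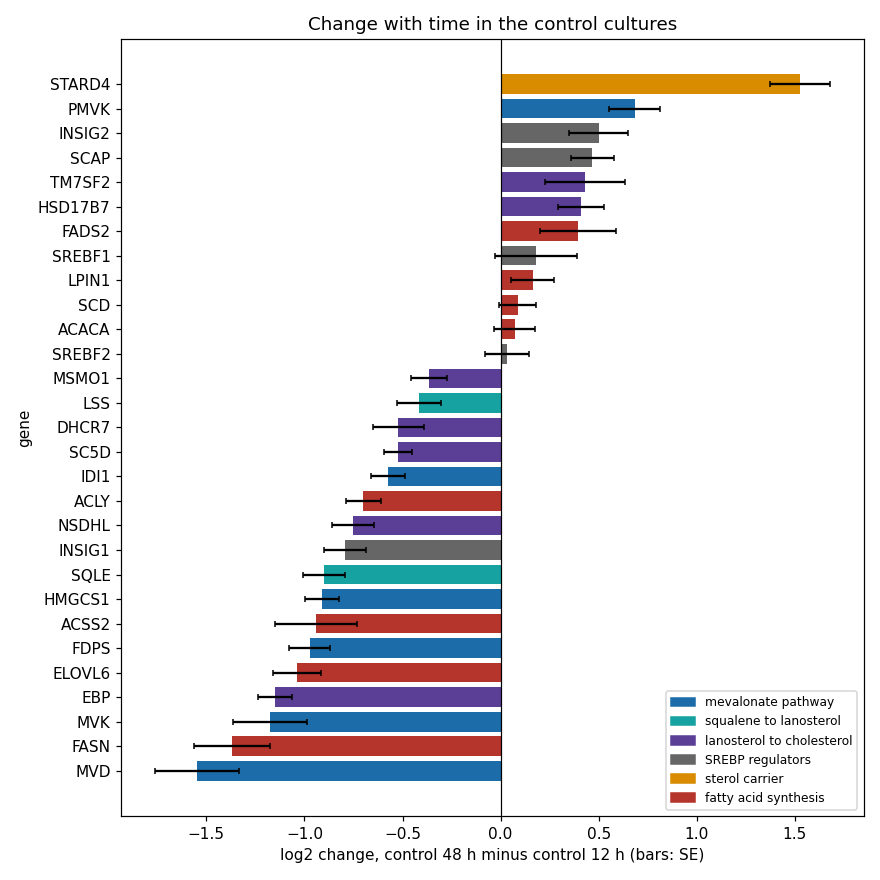
Bars show the log2 change from control at 12 h to control at 48 h for the leading probe set of each of 29 genes, coloured by role and starting at 0, with lines of 1 standard error (limma, 3 arrays per group). STARD4 is the longest bar to the right at 1.52 and MVD the longest to the left at -1.55.

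The side-by-side levels show where the 48 h CsA arrays ended. Relative to the mean of the 12 h controls, the mean over the 29 genes was 0.17, 0.20 and 0.30 on the CsA arrays of 12 h. It was -0.42, -0.26 and -0.32 on the control arrays of 48 h and -0.66, -0.58 and -0.65 on the CsA arrays of 48 h. DNA replication genes moved over the same arrays. Their mean over 11 genes, against the 12 h controls, was -0.08, -0.06 and -0.08 with CsA at 12 h, -1.53, -1.85 and -1.99 in control at 48 h and -2.82, -2.83 and -2.61 with CsA at 48 h. All 11 fell with time in control, where 18% of all probe sets were called lower. With CsA 0 passed on the 48 h arrays alone. The fit of all 12 arrays called 9 lower, where it called 8.18% of all probe sets lower. The part of the replication genes in the lower values of the sterol and fatty acid genes at 48 h was not tested. At 12 h the replication genes had a median change of -0.07 beside 0.22 for the members. In bulk RNA, fewer cells that express a gene and less RNA per cell cannot be told apart.

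Other genes of sterol synthesis and of its surroundings, from lists written with earlier results known, showed the pattern only in part. No gene of these lists passed in a CsA comparison within 1 time. Of 3 measured sterol genes outside the members, ACAT2, which makes the acetoacetyl-CoA that HMGCS1 uses, was the one called in the difference. It changed by 0.18 at 12 h and -0.71 (SE 0.10) at 48 h, a difference of -0.89 (SE 0.13, limma adjusted p = 0.0386). TMEM97 changed by 0.22 and -0.47, and LBR, a sterol reductase with the same activity as TM7SF2, by -0.02 and -0.29. All 3 fell with time in control. Of 15 measured genes for SREBP transport, cleavage and sterol-dependent degradation, 7 had a positive change at 12 h and 8 at 48 h, with medians of -0.01 and 0.00. SAR1A, a coat GTPase for export from the endoplasmic reticulum, had the largest change at 12 h, -0.12 (SE 0.12). RNF145, a ubiquitin ligase of this machinery, was the exception at 48 h, with means of 12.86 ± 0.15 in control and 11.86 ± 0.06 with CsA (SD, n = 3; limma adjusted p = 0.0662), and its difference of -1.07 (SE 0.13) passed (limma adjusted p = 0.025). PAQR3, a Golgi anchor for the SCAP complex, had the next largest change at 48 h, 0.40. In this list 5 genes rose with time in control (MBTPS2, SEC24A, ERLIN2, RNF139 and SPRING1) and 2 fell (SEC23A and ERLIN1). Beside this and the other lists, 20.5% of all probe sets were called higher and 18% lower with time in control. In the difference 0.0436% of all were called higher and 0.276% lower.

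Genes that use farnesyl pyrophosphate for other products had medians of -0.01 at 12 h and 0.02 at 48 h over 10 measured genes. PDSS1, which makes the ubiquinone side chain, changed by -0.28 and -0.68, and GGPS1, which makes geranylgeranyl pyrophosphate, by 0.05 and 0.46. NUS1, of dolichol synthesis, had 0.19 at 12 h. With time in control GGPS1, FNTA, RABGGTB and NUS1 rose and PDSS1 fell. Of 10 measured genes for sterol transport, storage and efflux, NPC1, which exports cholesterol from lysosomes, was higher at both times (0.38, SE 0.09 and 0.61, SE 0.20) and did not pass. SOAT1, which esterifies cholesterol, changed by 0.12 and -0.55 (SE 0.14). NPC1, OSBP and STARD3 rose with time.

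Other lipogenic genes, 17 measured, had medians of 0.02 and -0.11. SCD5, a second stearoyl desaturase, changed by -0.06 at 12 h and -1.46 (SE 0.23, limma adjusted p = 0.072) at 48 h, beside -0.03 for SCD itself. ACACB, the mitochondrial counterpart of ACACA, changed by -0.74 (SE 0.33) at 48 h. DGAT2, which makes triglyceride, had -0.42 (SE 0.14) and ACSL1, an acyl-CoA synthetase, 0.36 (SE 0.34) as the largest changes at 12 h. With time in control ELOVL7, MID1IP1 and HSD17B12 rose and ME1, SLC25A1, TECR and ACSL4 fell. Fatty acid oxidation genes, the opposing pathway, had medians of -0.05 and -0.26 over 13 genes, and 12 of 13 were negative at 48 h. PPARGC1A, a coactivator of oxidative genes, had the largest change of this list at -2.22 (SE 0.38, limma adjusted p = 0.0769) at 48 h, and ETFB, an electron carrier of oxidation, changed by -0.86 (SE 0.18). CPT2 and ACADVL changed by -0.33 and -0.21 at 12 h. Synthesis and oxidation genes thus both had negative medians at 48 h, -0.27 and -0.26, and at 12 h the medians were 0.27 and -0.05. The difference between these lists was not tested.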

How the data were processed

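Total RNA of 12 samples was hybridized to Affymetrix arrays. The authors deposited GCRMA values, 1 log2 value per probe set and array, per the submitters' processing notes. Its version and settings are not stated in these notes. GCRMA compresses dim signals, so changes near a log2 value of 4 are uncertain. No further normalization was applied, and 0 pairs of arrays were identical. The number of arrays limits the precision.

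The platform annotation gave 1 symbol to 41097 of 54675 probe sets, several to 1801 and none to 11777, and 41043 symbols matched RefSeq by gene identifier. Control probe sets (62) and probe sets above 4 on fewer than 3 arrays were left out. limma 3.58.1 (R 4.3.3; lmFit and eBayes, two-sided) was fitted to all 20625 remaining probe sets, with Benjamini-Hochberg adjustment over all of them and a threshold of 0.05. CsA was compared with control on the 6 arrays of each time (4 residual degrees of freedom), because arrays of 48 h spread more widely. An earlier fit of all 12 arrays was known to make too many false calls at 48 h, so that fit served only as an alternative. The difference of effects and the control change with time used all 12 arrays (8 residual degrees of freedom). All adjusted p-values are from limma. On simulated data the fits were checked for the sign and mean size of planted changes, and no rate of false calls is given here.

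The leading probe set of a gene has the highest mean over all arrays. Values on each array are given for members called in any comparison and for the 5 largest changes in each direction of each CsA comparison with a mean of at least 6 in the higher group. In the further lists, genes called in a comparison and the 2 largest changes of each CsA comparison are named. Any other gene or probe set was named after its values were seen. The members and lists were chosen with earlier results of these data known. The replicate numbers of the labels paired the arrays at 12 h (correlations of same-numbered CsA and control arrays of 0.462, 0.55 and 0.392) and the controls of both times (0.124, 0.13 and 0.295), not the arrays of 48 h (-0.107, 0.306 and -0.149). Groups were taken as paired where every correlation exceeded 0.1, so the pairing of the controls between the times is weak. Whether replicates were separate cultures is stated only as "biological". Alternatives were the replicate block, a fit of all arrays, other filters, 1 or the mean probe set per gene, median centring, a trended robust prior, group weights and leaving out arrays.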

Additional observations from a re-analysis of the deposited data

Results flagged for a closer look

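The CsA effect differed between 12 h and 48 h by the interaction test of limma (Benjamini-Hochberg over 20625 probe sets) for 4 member probe sets. Of all probe sets, 0.276% were called lower and 0.0436% higher. Each of the 4 calls was lost in 9 of the 12 fits that leave out 1 array. All were lost with a weight estimated for each group (limma adjusted p 0.0526 to 0.0619). The log2 difference, 48 h minus 12 h, was -0.82 for HMGCS1 (221750_at, adjusted p = 0.0402) and -0.72 for IDI1 (208881_x_at, adjusted p = 0.0445). For ELOVL6 it was -1.24 (204256_at, adjusted p = 0.0373) and -1.75 (210868_s_at, adjusted p = 0.0387). CsA arrays lay above control at 12 h and below it at 48 h on every array for HMGCS1 and IDI1, and for ELOVL6 they overlapped control at 12 h and lay below it at 48 h.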

How the results depend on the processing

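At 12 h no member was called under any alternative, and 24 to 27 of 29 genes stayed positive when 1 array was left out. The median of 0.22 became 0.20 with the probe sets of each gene averaged and 0.18 to 0.25 with 1 array left out. At 48 h the count of member genes called, 0, became 6 with all 12 arrays in 1 fit, 1 with the filter at 6, 1 with 1 probe set per gene, 2 with the probe sets of each gene averaged and 1 with a trended robust prior. The count of probe sets called, 1, became 12, 0 with the replicate block, 3 with the filter at 6, 3 with the trended robust prior, 0 without both 48 h replicate 1 arrays and 0 to 1 with 1 array left out, where the median ran from -0.30 to -0.20. For the difference, the 3 genes and 4 probe sets called became 0 and 0 with weights per group, 1 and 2 with arrays centred on the median, 0 and 0 without both 48 h replicate 1 arrays, and 0 to 7 and 0 to 9 with 1 array left out, where the median ran from -0.55 to -0.46. For time in control, averaging the probe sets moved the median from -0.52 to -0.27. With 1 array left out, that median ran from -0.54 to -0.42, with 20 to 22 genes and 34 to 40 probe sets called. The cause of these changes was not tested. The share of all probe sets called also depends on the setting. At 48 h it was 0.0388% lower in the main fit and 8.18% lower in the fit of all 12 arrays. For most other settings that share is not given here, so the member counts alone cannot be read as particular to the members. Some changes near 0 turned sign. For SREBF2 at 12 h the value was 0.12 with its probe sets averaged and ran from -0.061 to 0.0453 with 1 array left out. For HSD17B7 at 48 h it was -0.0697 without both replicate 1 arrays and ran from -0.0445 to 0.127 with 1 left out. Values for ACSS2 and SCAP at 48 h ran from -0.203 to 0.299 and from -0.0377 to 0.115, with the negative ones only without CsA replicate 3. With 1 array left out, signs also turned at 12 h for MVK (-0.0352 without CsA replicate 3, up to 0.226), TM7SF2 (-0.111 to 0.129) and FADS2 (-0.195 to 0.116). At 48 h they turned for MVD (-0.24 to 0.151) and SCD (-0.101 to 0.0226), in the difference for NSDHL (-0.12 to 0.0434), and with time in control for SREBF2 (-0.0152 to 0.114). Calls in the difference were gained by SQLE, SC5D, ACLY and ACSS2 without CsA replicate 3 at 48 h and by TM7SF2 without CsA replicate 2. Blocking on the replicate number ended the SQLE call at 48 h (adjusted p = 0.0941, limma) and left no member called at 12 h. It gave TM7SF2 a call with time in control (adjusted p = 0.0215, limma). For the difference, blocking on the number within each time raised the probe sets called from 4 to 6. The numbers did not pair the arrays of 48 h. Over the 44 results for single genes or probe sets chosen by the naming rule, 697 values under alternatives kept their direction and side of the threshold, 66 lost the call, 8 gained it and 11 turned. Dim probe sets (SQLE 1557352_at, FADS2) and the 4 residual degrees of freedom within 1 time limit what can be called.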
